A study of Mus musculus with 6 samples.

Results

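Sox10, S100b, Mbp, Erbb3, Fabp7, Gfap, L1cam and Foxd3 are 8 genes used as markers of sustentacular cells and Schwann cells, the glia of the adrenal medulla. They were followed on every probe set that the platform annotation assigns to 1 of these symbols alone, which gave 22 probe sets out of 45037 that are not array controls, and 8 genes out of 18193 with a single symbol. A probe set is a group of short probes on the array that reads 1 gene, mostly near the 3′ end of its transcript. The arrays held RNA of adrenal medulla cut by microdissection from male C57/Bl6 mice. The animals had undergone transverse aortic constriction (TAC), which narrows the aorta so that the heart pumps against raised pressure, or sham surgery, in both cases 8 weeks earlier. There were 3 arrays per group, each with RNA from both medullae of 1 animal. The comparison of TAC with sham asks how the medulla responds to cardiac pressure overload.

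Sustentacular cells wrap clusters of chromaffin cells, which release adrenaline and noradrenaline, and Schwann cells wrap the nerve fibres that reach them. Both derive from the neural crest, where the transcription factors Foxd3 and Sox10 act early, and mature glia keep Sox10, which drives Erbb3 and the myelin genes. Neuregulin from axons signals to Schwann cells through the receptor pair made of Erbb3 and Erbb2. S100b, Fabp7 and Gfap encode cytoplasmic proteins used to stain glia, Mbp encodes a protein that compacts myelin, and L1cam encodes an adhesion molecule of axons, chromaffin cells and unmyelinated Schwann cells. In bulk tissue, fewer cells of a type and less RNA per cell cannot be told apart.

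None of the 11 tested glial probe sets differed between TAC and sham past the threshold, an adjusted p under 0.05 in limma with Benjamini-Hochberg adjustment over 18188 probe sets. Of all tested probe sets 0% passed. With limma's array weights, which rest the TAC side mostly on TAC 3, 7 of the 11 passed, 5 higher and 2 lower after TAC, as did 36.8% of all tested probe sets. Sox10, L1cam and 1 probe set of Mbp lay 1.71 to 1.75 times higher after TAC, with all 3 TAC arrays above all 3 sham arrays. Erbb3, S100b and Fabp7 overlapped between the groups, and Gfap varied more within each group than between them. At an unadjusted p under 0.05 there were 3 of the 11 probe sets, all higher after TAC, where 4.65% of all tested probe sets were higher, 2.29% lower and 6.94% differed in either direction. These 3 depended on the scaling and on single arrays, since 0 of the 11 remained with median centring, 1 (Sox10) with cyclic loess or quantile normalization, and 0 without TAC 3 or without sham 2. The balance of all calls at this threshold also moved with the scaling, from 67.0% higher to 56.4% with quantile normalization, 50.7% with median centring and 43.4% with cyclic loess. The groups did not overlap at the same 3. Of all tested probe sets 13.0% did not overlap, made up of 9.01% of all that were higher and 4.01% of all that were lower after TAC.

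All levels below are log2 intensities, differences are TAC minus sham on that scale, SD refers to the 3 arrays of a group, and SE is the standard error from limma. A probe set was tested where it reached log2 4 on at least 3 of the 6 arrays in any group. Th and Dbh, which encode enzymes of catecholamine synthesis and define chromaffin cells, lay between 12.20 and 13.74 on every array at their probe sets with the highest mean. Of the 8 glial markers 7 were measured, all but Foxd3, and the list does not separate sustentacular from Schwann cells. A control measure that moves with RNA integrity differed between arrays more than between groups. The Gapdh control probe sets at the 3′ end minus those at the 5′ end gave a log2 difference, larger where transcripts are shortened, of 4.71, 3.67 and 3.98 in TAC 1 to 3 and 5.15, 3.08 and 2.88 in sham 1 to 3 (exact 2-sided permutation test p = 0.6). An exact permutation test of 3 against 3 arrays cannot go below p = 0.1. The RNA had 2 rounds of amplification that start at the 3′ end, so this Gapdh difference does not measure RNA integrity alone.

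**Figure D1:**
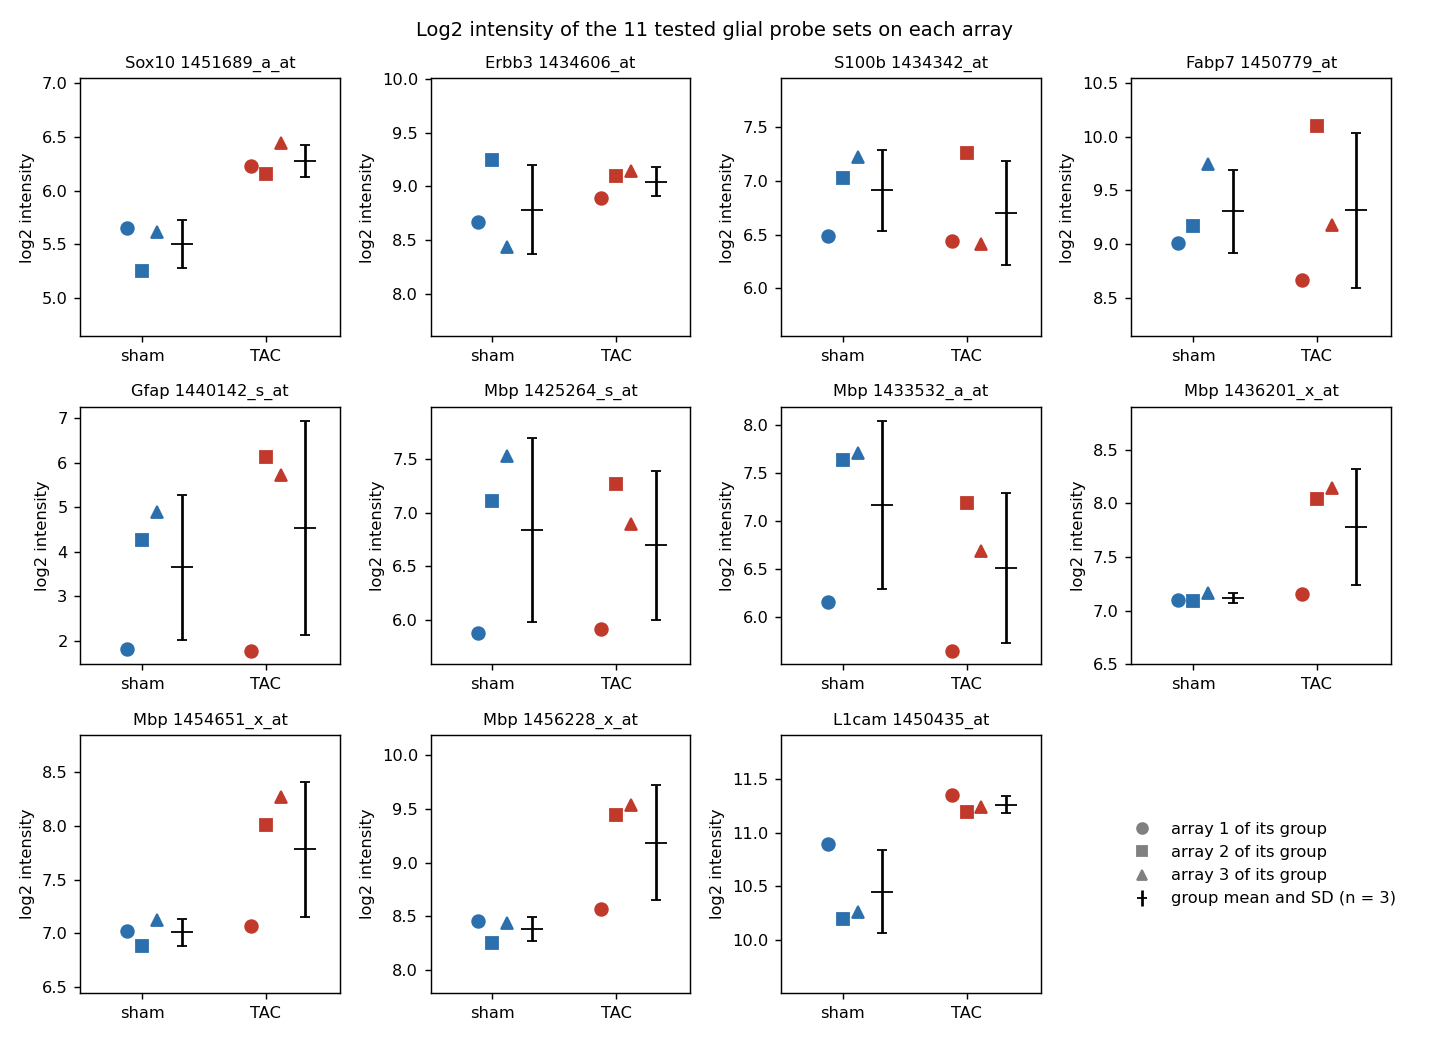
Each panel plots log2 intensity of 1 tested glial probe set on the 6 arrays (blue sham, red TAC, the marker shape gives the array number) with the group mean and SD, n = 3. Sox10, L1cam and Mbp 1456228_x_at show 3 TAC arrays above 3 sham arrays, and Gfap shows TAC 1 and sham 1 near log2 1.8.

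Among the transcription factors, Sox10 was read by 1 of its 3 probe sets. The probe set 1451689_a_at measured 6.23, 6.16 and 6.44 in TAC 1 to 3 and 5.65, 5.25 and 5.61 in sham 1 to 3. The lowest TAC array was above the highest sham array, and TAC 3 was the highest of all. The means were 6.28 ± 0.15 (SD, n = 3) and 5.50 ± 0.22, a difference of 0.77 ± 0.24 SE (95% interval 0.20 to 1.35, limma adjusted p = 0.560). The difference stayed between 0.65 and 0.85 when each array was left out in turn. The other 2 probe sets, 1424985_a_at and 1425369_a_at, lay between 2.00 and 3.25 on every array and were not tested. Foxd3, the factor of premigratory neural crest, was read by 1 probe set, which lay between 2.96 and 3.21 on all arrays, below the log2 4 filter, so nothing could be said of a difference.

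Erbb3, the neuregulin receptor of Schwann cells, was measured by 1434606_at at 8.89, 9.10 and 9.14 after TAC and 8.66, 9.24 and 8.44 after sham. Sham 2 was the highest array and the groups overlapped. The difference was 0.26 ± 0.29 SE (95% interval -0.43 to 0.96, limma adjusted p = 0.979), and it was 0.09 without sham 3 and 0.49 without sham 2. The TAC arrays spread by an SD of 0.13 and the sham arrays by 0.42. A second probe set of Erbb3, 1452482_at, lay between 2.42 and 2.56 on all arrays.

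S100b encodes a calcium-binding protein and is the usual stain for sustentacular cells. Its probe set 1434342_at measured 6.44, 7.26 and 6.41 after TAC and 6.49, 7.03 and 7.22 after sham. TAC 1, TAC 3 and sham 1 lay between 6.41 and 6.49 and the other 3 arrays between 7.03 and 7.26, so that both levels occurred in both groups. The difference was -0.21 ± 0.35 SE (95% interval -1.06 to 0.64, limma adjusted p = 0.985). It ranged from -0.49 without TAC 2 to -0.055 without sham 3, and was -0.063 with the Gapdh difference as covariate. It was the only member whose leading probe set, the one with the highest mean of its gene, read lower after TAC. The other probe set, 1419383_at, lay between 3.01 and 3.29.

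Fabp7 encodes a fatty acid-binding protein of immature Schwann cells and of glia that ensheathe neurons. Its single probe set 1450779_at measured 8.67, 10.10 and 9.18 after TAC and 9.01, 9.17 and 9.74 after sham. TAC 2 was the highest array and TAC 1 the lowest, so the TAC group enclosed the whole sham group. The difference was 0.0081 ± 0.43 SE (95% interval -1.04 to 1.06, limma adjusted p = 0.999). The sign of so small a difference turned when arrays were centred on their medians (-0.020), quantile normalized (-0.034) or adjusted by cyclic loess (-0.10).

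Gfap encodes the intermediate filament of astrocytes and of some Schwann and sustentacular cells. Its probe set 1440142_s_at measured 1.78, 6.13 and 5.73 after TAC and 1.81, 4.27 and 4.89 after sham. TAC 1 and sham 1 lay at the bottom of the scale, and the other 4 arrays were at log2 4 or above. These same 2 arrays had the largest Gapdh 3′ minus 5′ differences, and the part of RNA integrity in the Gfap values was not tested. The difference was 0.89 ± 1.37 SE (95% interval -2.44 to 4.22, limma adjusted p = 0.982), was 2.27 without TAC 1 and turned to -0.033 without sham 1. The other probe sets of Gfap, 1426508_at and 1426509_s_at, lay between 2.51 and 2.92 on all arrays.

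L1cam was measured by 1450435_at at 11.35, 11.19 and 11.24 after TAC and 10.90, 10.20 and 10.26 after sham. The TAC arrays lay close together above all sham arrays, and sham 1 was the nearest of those. The means were 11.26 ± 0.08 (SD, n = 3) and 10.45 ± 0.39, a difference of 0.81 ± 0.27 SE (95% interval 0.15 to 1.47, limma adjusted p = 0.614). The difference was 0.68 without sham 2, 1.03 without sham 1 and 0.69 with the Gapdh difference as covariate. Its values correlated with the Gapdh difference at 0.68 over the 6 arrays, and the part of RNA integrity in them was not tested. Chromaffin cells also express L1cam, and the 9 measured chromaffin genes averaged 12.36 to 13.12 on the TAC arrays and 12.34 to 12.82 on the sham arrays, overlapping between groups. The other L1cam probe set, 1421958_at, lay between 2.09 and 2.18.

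L1cam and S100b correlated at -0.57 over the arrays, and 5720 of 7157 other genes correlated with L1cam above that value. S100b and Fabp7 correlated at 0.85, and 938 genes were closer to S100b. A link of sequence to these values was not tested. The sequences before the transcription starts of L1cam, S100b and Fabp7 are shown as description, chosen after the values were seen. They are the 250 bases before the start in RefSeq on GRCm38.p6, with CG dinucleotides in capitals. For L1cam, at chrX:73880835-73881084 on the minus strand, the more upstream of 2 listed starts was taken, S100b is at chr10:76253586-76253835 and Fabp7 at chr10:57784673-57784922, both on the plus strand.
L1cam: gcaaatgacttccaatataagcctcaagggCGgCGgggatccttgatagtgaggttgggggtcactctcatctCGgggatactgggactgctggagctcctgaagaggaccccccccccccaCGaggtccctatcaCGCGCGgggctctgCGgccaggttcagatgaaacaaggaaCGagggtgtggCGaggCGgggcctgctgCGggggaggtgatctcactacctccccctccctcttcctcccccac
S100b: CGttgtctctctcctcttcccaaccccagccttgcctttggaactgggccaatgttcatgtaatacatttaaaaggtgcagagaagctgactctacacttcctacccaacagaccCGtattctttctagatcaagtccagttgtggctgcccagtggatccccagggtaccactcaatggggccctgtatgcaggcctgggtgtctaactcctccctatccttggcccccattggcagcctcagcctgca
Fabp7: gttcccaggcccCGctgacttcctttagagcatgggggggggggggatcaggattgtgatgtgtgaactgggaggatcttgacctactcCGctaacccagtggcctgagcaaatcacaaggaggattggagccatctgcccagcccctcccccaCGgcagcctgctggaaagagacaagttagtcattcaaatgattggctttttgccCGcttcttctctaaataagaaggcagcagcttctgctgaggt
The L1cam window held 12 CG dinucleotides (20 at its other listed start), the Fabp7 window 4 and the S100b window 2, beside a median of 6 over 32851 such windows. The words ACAAAG and ACAATG, short forms of the sequence that Sox factors bind, were searched on both strands and cannot share bases with each other. None of the 5 members in the table (Foxd3, Fabp7, S100b, Gfap and L1cam) held either word in its window, while 16.5% of all windows held the first and 10.7% the second. This says only that these letters are not in these windows.

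Mbp was read by 9 probe sets, of which 5 were tested, and these fell into 2 kinds with different patterns over the arrays. The first kind is the 3 probe sets with the suffix x, which marks probes that can also bind other transcripts. Of these, 1456228_x_at measured 8.57, 9.45 and 9.54 after TAC and 8.45, 8.25 and 8.44 after sham. TAC 2 and TAC 3 stood well above the sham arrays, and TAC 1 just above the highest of them. The difference was 0.80 ± 0.32 SE (95% interval 0.02 to 1.59, limma adjusted p = 0.708). The probe sets 1436201_x_at and 1454651_x_at had the same shape, with differences of 0.66 ± 0.32 SE and 0.77 ± 0.36 SE (limma adjusted p = 0.792 and 0.774), and their groups overlapped because TAC 1 lay at the sham level. Pairwise correlations of these 3 over the 6 arrays were 0.99.

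The second kind of Mbp probe set overlapped between the groups. The probe set 1433532_a_at measured 5.64, 7.19 and 6.69 after TAC and 6.15, 7.64 and 7.71 after sham, and 1425264_s_at measured 5.92, 7.26 and 6.90 after TAC and 5.87, 7.11 and 7.53 after sham. In both, TAC 1 and sham 1 were the lowest arrays. Their differences were -0.66 ± 0.59 SE (limma adjusted p = 0.953) and -0.14 ± 0.55 SE (limma adjusted p = 0.997), and they correlated with each other at 0.93. The difference of 1433532_a_at was -0.23 without TAC 1, -1.17 without sham 1 and -0.32 with the Gapdh difference as covariate. With array weights it was -0.98 and passed (limma adjusted p = 0.0180), while the 3 probe sets of the first kind passed at 0.95 to 1.18. Against the probe sets of the first kind the correlation was between -0.05 and 0.35.

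The level of the first kind minus that of the second, averaged over their probe sets, was 1.82, 1.27 and 1.86 in TAC 1 to 3 and 1.51, 0.03 and -0.05 in sham 1 to 3. Sham 1 lay among the TAC arrays, and the mean difference of 1.15 had an exact 2-sided permutation p of 0.2. This measure was chosen after the values were seen. The mean of the first kind was 7.60 and 7.52 in TAC 1 and sham 1, the arrays with the largest Gapdh difference, against 8.50 and 8.65 in TAC 2 and TAC 3 and 7.41 and 7.58 in sham 2 and sham 3. The mean of the second kind was 5.78 and 6.01 in TAC 1 and sham 1 and between 6.79 and 7.62 in the other 4 arrays. The part of RNA integrity in these patterns was not tested. In the second kind, 1425264_s_at and 1433532_a_at correlated with the Gapdh difference at -0.94 and -0.93. Lower correlations occurred in 5.79% and 7.08% of all tested probe sets. The probe sets of the first kind correlated with it at -0.08 to 0.04. Of the 4 untested Mbp probe sets, 1419646_a_at reached log2 4 in sham 2 (4.51) and sham 3 (4.64) alone, and the other 3 stayed between 2.59 and 3.27.

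**Figure D2:**
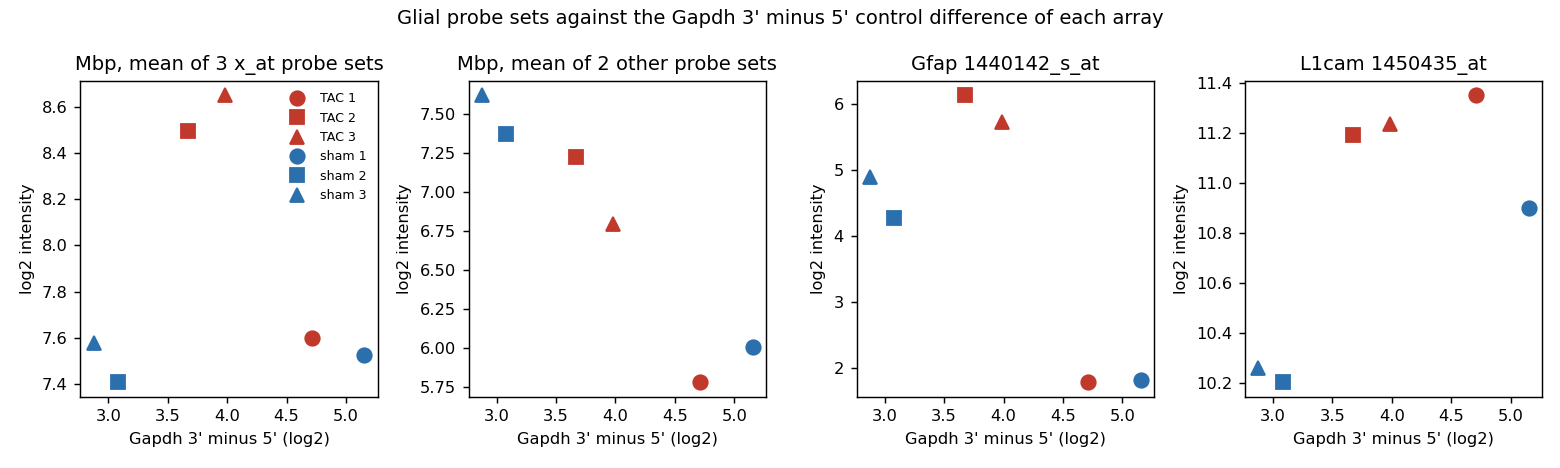
Log2 intensity of 2 kinds of Mbp probe set, Gfap and L1cam (vertical axes) against the log2 difference of the Gapdh 3′ and 5′ control probe sets (horizontal axes) on each array (red TAC, blue sham). The second kind of Mbp probe set and Gfap are lowest at 4.71 and 5.15 (TAC 1 and sham 1). L1cam is higher in the 3 TAC arrays than in the 3 sham arrays, and its highest sham array is sham 1, at 5.15.

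Across the leading probe sets of the 7 measured members, 6 read higher after TAC, among them Fabp7 at 0.0081, and 1 lower. The number higher was 5 with median centring, quantile normalization, cyclic loess or array weights. It was also 5 without TAC 2 or without sham 2, and it was 4 without sham 1. The median difference was 0.77, which is the value of Sox10 itself. Among the 10181 genes tested, 58.7% read higher and the median difference was 0.09. The median of the members depended on single arrays and on the choice of probe set. It was 0.20 without sham 1, 0.23 without TAC 2, 0.30 without TAC 3 and 0.29 with the probe sets of each gene averaged. The mean level of the 7 leading probe sets was 7.42, 8.48 and 8.24 on TAC 1 to 3 and 7.28, 7.63 and 7.80 on sham 1 to 3. The array numbered 1 was the lowest of each group and TAC 1 lay below 2 sham arrays. This was not particular to the members. The median of all tested probe sets was 6.50, 7.01 and 6.68 on TAC 1 to 3 and 6.31, 6.89 and 6.91 on sham 1 to 3.

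**Figure D3:**
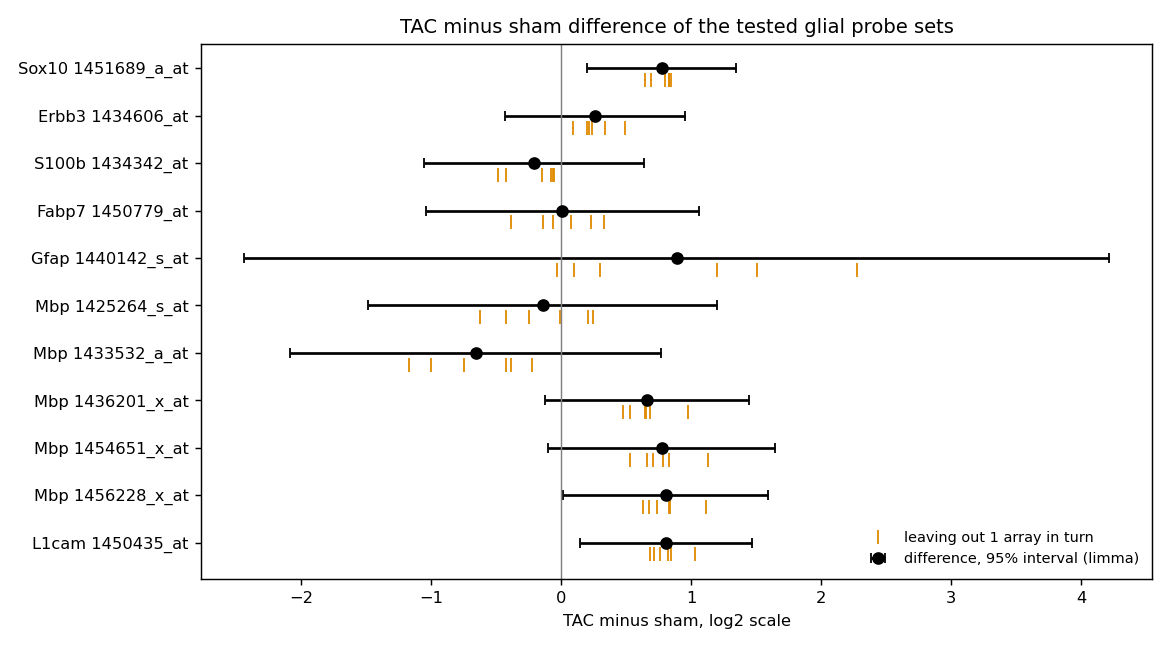
TAC minus sham difference on the log2 scale (horizontal axis) of the 11 tested glial probe sets with the 95% interval of the limma fit, and orange ticks for the value without each of the 6 arrays in turn. The intervals of Sox10 (0.20 to 1.35), L1cam (0.15 to 1.47) and Mbp 1456228_x_at (0.02 to 1.59) lie above 0 before adjustment, and that of Gfap spans -2.44 to 4.22.

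The members did not share 1 pattern over the 6 arrays. Sox10 correlated with L1cam at 0.90 and with the leading Mbp probe set at 0.82, but at 0.21 with Erbb3, its textbook target, and at -0.44 with S100b. S100b and Fabp7 correlated at 0.85, and Fabp7 and Gfap at 0.79. These are descriptions over the same 6 arrays, which differ in median level, in the Gapdh control difference and by group, and many genes were closer. Among 7157 other genes with a mean of at least log2 6, 169 correlated with Sox10 more closely than L1cam did.

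The genes whose values over the 6 arrays were most like each member were sought among 7157 genes with a mean of at least log2 6. The members themselves were not candidates, and 25 genes of the wider glial list described below reached that mean. With so few glial candidates, their absence from the genes named here was likely in advance, and no conclusion is drawn from it. The genes most like Sox10 were Pnkd, Ampd2, Usp7, Wnk2 and Pogk, at correlations of 0.992 to 0.997. For L1cam they were Rps18, Reep5, Mknk2, Chd1 and Sfxn3, at 0.979 to 0.997, and for the leading Mbp probe set Ndufb9, Rpn1, Zfp598, Tsr1 and Abl1, at 0.987 to 0.991. S100b was closest to Apobec1, Plekha3, Ctla2b, Mcee and Tmem47, at 0.992 to 0.995. Fabp7 was closest to Eef1akmt1, Snapc1, Rela, Jmy and Nat14, at 0.978 to 0.992. Gfap was closest to Ogfod1, Ctps, Cds2, Gps1 and Gtf3c4, at 0.994 to 0.999, and Erbb3 to Iigp1, Taf3, Ndfip1, Rasal2 and Bach1, at 0.908 to 0.949.

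Other genes of the same cells, 61 in all, were taken from a list of transcription factors, neuregulin signalling, myelin, adhesion and glial support genes. Of these, 37 were measured, 17 read higher and 20 lower after TAC, and 0 passed the adjusted threshold. At an unadjusted p under 0.05 there were 3 of the 37, Nfasc and Cnp higher and Sox5 lower, where 7.29% of all genes tested were at that threshold. Sox5 entered the test through its sham arrays alone, so its place in this count is not read as a difference. The median difference was -0.08, and it was 0.0057 with array weights.

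**Figure D4:**
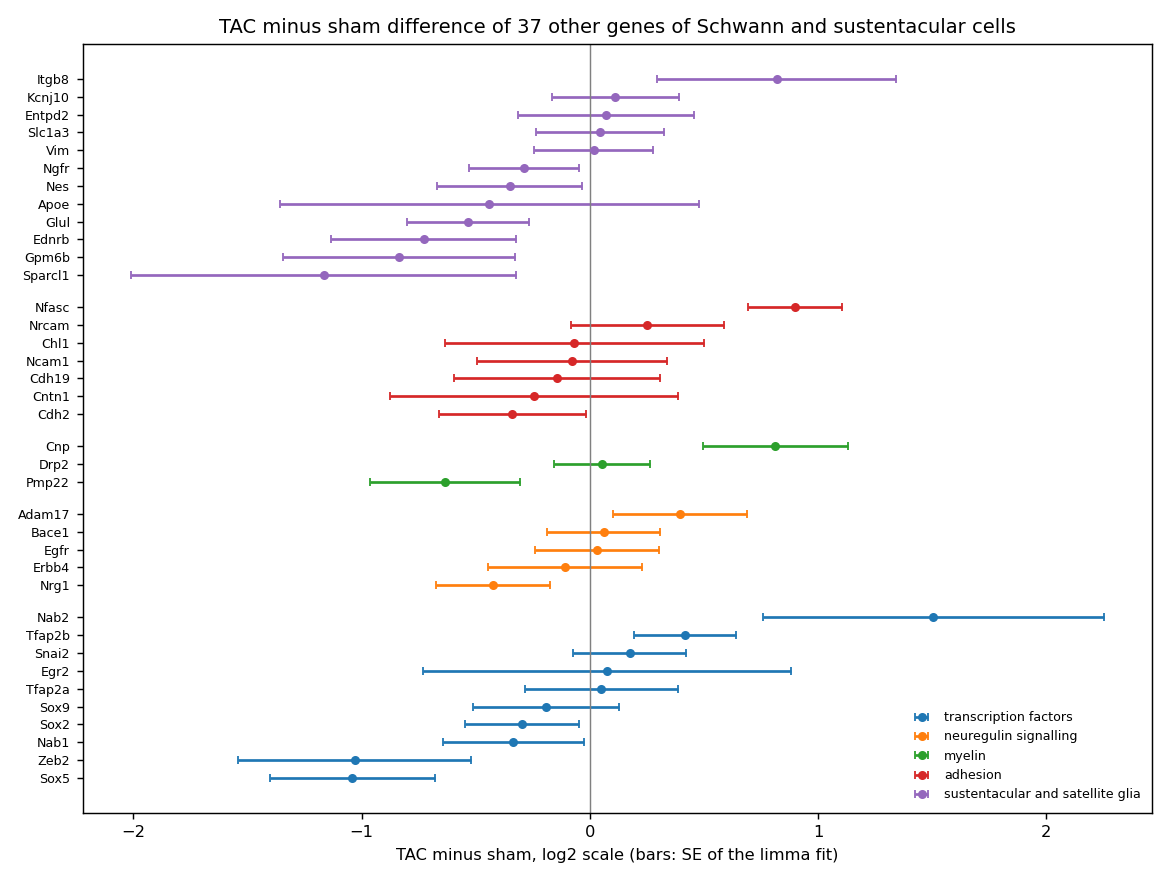
TAC minus sham difference on the log2 scale (horizontal axis) of the 37 measured genes of the wider glial list, grouped by role and coloured alike, with bars for the SE of the limma fit. Sox5 was tested through its sham arrays alone, while Nfasc (0.90) and Cnp (0.81) stand on the right of their groups, and most glial support genes lie left of 0 or near it.

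In the adhesion group 2 of 7 genes read higher. Neurofascin (Nfasc), a relative of L1cam that organises nodes and the first segment of axons, measured 7.14, 7.24 and 7.32 after TAC and 6.35, 6.35 and 6.30 after sham. The groups stood clearly apart on this probe set (difference 0.90 ± 0.20 SE, limma adjusted p = 0.465), while the other 2 tested Nfasc probe sets read 0.12 and -0.49. The other L1 relatives Nrcam (0.25 ± 0.34 SE) and Chl1 (-0.07 ± 0.57 SE) overlapped between groups. The contactin gene Cntn1 read -0.24 on its leading probe set and, without overlap, -1.68 on a second (limma adjusted p = 0.417). The cadherin gene Cdh2 read -0.34.

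Of the 14 myelin genes listed 3 were measured. Cnp, which encodes a myelin enzyme, measured 9.66, 10.03 and 9.59 after TAC and 8.62, 8.72 and 9.49 after sham on its only tested probe set, which also carries the suffix x. Its lowest TAC array was just above its highest sham array (difference 0.81 ± 0.32 SE, limma adjusted p = 0.700). Pmp22, a membrane protein gene of peripheral myelin, read the other way at -0.63 ± 0.33 SE (limma adjusted p = 0.822), and Drp2, a gene of the Schwann cell dystroglycan complex, read 0.05.

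Of 14 transcription factor genes 10 were measured, 5 higher and 5 lower. Sox5, which encodes a Sox protein of the neural crest, measured 3.49, 3.89 and 3.27 after TAC and 5.22, 4.14 and 4.42 after sham. All its TAC values were under log2 4 and all its sham values above, so it passed the filter only through the group where it was high. It is included in the counts and the median of the wider list, but is not read as a difference. Zeb2, a regulator of Schwann cell differentiation, read -1.03 ± 0.51 SE, and its other 2 tested probe sets read -1.77, without overlap, and -1.03. Nab2, whose product binds Egr2, read 1.51 ± 0.75 SE with sham 1 among the TAC values. Tfap2b read 0.42 and, on a second probe set, -1.38, both without overlap. Egr2, the factor that drives myelination, read 0.08 ± 0.81 SE, with 8.12 in sham 3 and 9.67 to 11.04 elsewhere, and 0.51 on a second probe set. Sox2, which marks immature glia, read -0.30 ± 0.25 SE.

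In neuregulin signalling 3 of 5 measured genes read higher. The ligand gene Nrg1 measured 4.72, 4.68 and 4.44 after TAC and 4.75, 5.32 and 5.04 after sham, without overlap (difference -0.42 ± 0.25 SE, limma adjusted p = 0.881). Erbb2, the partner of Erbb3, was not tested because it lay between 2.00 and 2.07 on all arrays. Erbb4 read -0.11, and the genes of the proteases that release neuregulin, Adam17 and Bace1, read 0.40 and 0.06.

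Glial support genes read higher in 5 of 12. Glul, the glutamine synthetase gene, measured 9.56, 9.57 and 8.99 after TAC and 9.69, 10.06 and 9.96 after sham, without overlap (difference -0.53 ± 0.27 SE, limma adjusted p = 0.811), and a second probe set read -2.11 with overlap. Ngfr, the neurotrophin receptor gene of Schwann cells, read -0.29 ± 0.24 SE, also without overlap. The receptor gene Ednrb read -0.73 ± 0.41 SE and the membrane protein gene Gpm6b -0.84 ± 0.51 SE, while the integrin gene Itgb8 read 0.82 ± 0.52 SE.

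Markers of other cells were followed over the same arrays, and their part in the glial values was not tested. Among 10 neuron genes 2 read higher (median -0.48), with Rbfox3 at 1.53 and Tubb3 at -0.45. Another tested probe set of Rbfox3 read -0.20. The mean level of the neuron genes was 6.70 to 7.67 after TAC and 7.10 to 8.03 after sham. Among 8 fibroblast genes 1 read higher (median -1.29), with Col1a1 at -0.27 and Col1a2 at -1.40. At an unadjusted p under 0.05 in limma there were 5 of these 8, where 7.29% of all genes tested were at that threshold. Lower without overlap were 4 of the 8, as were 4.01% of all tested probe sets, but 0 of the 8 passed the adjusted threshold. Of 9 chromaffin genes 7 read higher and 2 lower on their leading probe sets (median 0.27), with Th among the lower at -0.30. Dbh read 0.42 on its leading probe set, and -0.51 and -0.045 on its others. Macrophage genes read higher in 2 of 6 (median -0.28), with Csf1r at 1.01 and Cd68 not tested, and endothelial genes in 2 of 4 (median -0.26), with Pecam1 and Cdh5 below the filter. Adrenal cortex genes, among them Star and Cyp11a1, read higher in 2 of 7. Their mean level was 9.10, 7.69 and 6.23 on TAC 1 to 3 and 7.49, 6.30 and 10.48 on sham 1 to 3 (exact 2-sided permutation p = 0.9). S100b is also expressed by fat cells. Of their markers, Adipoq lay at 3.48 in sham 1 and at 2.07 to 2.13 elsewhere, below the filter. Fabp4, the 1 fat cell gene measured, which capillaries also express, lay between 10.11 and 12.05, highest in sham 1.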

How the data were processed

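Gene expression was measured on 6 Affymetrix Mouse Genome 430 2.0 arrays, 3 TAC and 3 sham, after 2 rounds of amplification that start at the 3′ end of transcripts, per the labels' protocols. The deposited table holds 1 linear intensity per probe set and array, made by the authors with GCRMA, per the submitters' processing notes. Its version is not given in the sources used here. Values were log2 transformed and not scaled further. Of 45101 probe sets, 64 controls were left out, 34945 had 1 symbol, 932 several and 9160 none. RefSeq (GRCm38.p6) updated 0 symbols. The group difference was fitted with limma 3.58.1 (R 4.3.3) over 18188 probe sets with log2 4 or more on at least 3 arrays, without covariates, 2-sided, with Benjamini-Hochberg adjustment at 0.05. The number of arrays limits the precision, and the median SE was 0.39.

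The members and lists were chosen with earlier results of these data known. Named genes were all member probe sets, up to 4 genes with the smallest p in each group of the wider list plus Pmp22, Erbb2, Nrg1, Egr2, Ngfr, Sox2 and others that are not reported here, the first 2 genes of each other list, and the 5 genes most alike each member by Pearson correlation. Sequence words and probe set comparisons beyond this rule were chosen after values were seen where the text says so, and some other probe sets of named genes are given for comparison. Chl1, a relative of L1cam, was named outside this rule. The fit was also run on simulated arrays with independent noise, to check that planted differences were returned at their size. Differences shared by whole arrays were not simulated. The labels name no pairs, so array numbers entered only as the replicate block among the alternatives. Deviations from the group mean correlated at 0.76, 0.78 and -0.22 between arrays with the same number, and at -0.84 to 0.71 between arrays with different numbers. These correlations do not decide whether same-numbered arrays belong together, because deviations within a group of 3 arrays depend on each other. Alternatives were other scalings, filters, array weights, a replicate block, the Gapdh difference as covariate and leaving out each array.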

Additional observations from a re-analysis of the deposited data

How the results depend on the processing

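No member probe set passed an adjusted p of 0.05 in limma under any alternative other than array weights. With array weights 7 of 11 passed (Sox10, L1cam and 3 of Mbp higher, S100b and Mbp 1433532_a_at lower), as did 6698 of all 18188, with a weight of 6.11 for TAC 3 and 0.14 for sham 1. Sox10 then had a difference of 0.98 (adjusted p = 0.00704), L1cam 0.99 (adjusted p = 0.00507) and S100b -0.65 (adjusted p = 0.0257). Elsewhere the adjusted p of Sox10 was 0.133 or more and that of L1cam 0.116 or more. The count at an unadjusted p under 0.05 was 1263, and 8749 with array weights, 3843 with the Gapdh difference as covariate, 2110 without a filter and 641 to 2429 without 1 array. Of the 1263, 67.0% were higher, against 40.9% with array weights. With the replicate number as a block the count was 3005, 4 of them member probe sets (Mbp 1433532_a_at lower), and the adjusted count stayed 0. The median over the members was 0.26 when a mean of at least log2 6 was required, where Sox10 and Gfap drop out, 0.52 without a filter, 0.29 with probe sets averaged, and 0.20 to 0.76 without 1 array. Signs turned for 11 of 163 member values. Fabp7 read -0.26 with array weights, -0.10 with cyclic loess, -0.020 with median centring, -0.034 with quantile normalization, and -0.38 to 0.33 without 1 array (-0.38, -0.14 and -0.062 without TAC 2, sham 1 and sham 2). Gfap read -0.033 to 2.27 without 1 array, the lowest without sham 1. Mbp 1425264_s_at read 0.18 with the Gapdh covariate, and -0.62 to 0.25 without 1 array, with 0.25 without TAC 1 and 0.20 without sham 3. The cause of these changes was not tested. The wider list's median stayed between -0.19 and 0.0057.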
